A study of Mus musculus with 4 samples.

Results

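Genes that act in germ cells and in meiosis were examined in endothelial cells derived from induced pluripotent stem cells (iPSCs) of mice. Such stem cells are made from adult cells by reprogramming, and can form any tissue. The set held 39 genes, and every probe set whose platform annotation named 1 of them alone was taken. A probe set is a group of short array probes read out as 1 value for a transcript. In all, 48 of 34945 single-gene probe sets, for 35 of 18193 genes, belonged to the set. Nanos2, Nanos3, Fkbp6 and Zcwpw1 had no probe set of their own and were not analysed here. The data came from 2 arrays of cells from mice with diet-induced obesity (DIO 1 and DIO 2) and 2 arrays of cells from healthy control mice (control 1 and control 2), 1 array per mouse. All 4 mice were aged 24 weeks. Cells of both groups shared the reprogramming, the culture in medium for endothelial cells and the release with trypsin ahead of RNA isolation. Each group is given as biological duplicates, and no label names a genotype, strain, sex, diet composition or the number of iPSC lines per mouse, so p-values measure the spread between these samples, which may in part be technical.

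Levels are the log2 values the authors deposited, on which a step of 1 is a 2-fold difference. The titles describe the samples as endothelial derivatives, whereas the cell type label gives iPSC. Of 14 endothelial markers, 9 lay above the background level defined below on all 4 arrays (71.6% of all genes), and Tie1, Emcn, Fli1, Erg and Tek did not. All 13 pluripotent cell markers did, among them Pou5f1 at 11.79 and 10.33 in the DIO arrays and 11.16 and 9.96 in the controls. Control 2 stood apart by 13 epidermal markers, which averaged 8.50 and 9.60 in DIO 1 and DIO 2, against 7.03 and 12.15 in control 1 and control 2. The 18S ribosomal RNA probe sets averaged 12.30 and 11.96 in DIO and 12.60 and 12.65 in the controls. In such bulk samples, fewer cells of a type and less RNA per cell cannot be told apart.

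Germ cells set themselves apart from the body's other cells by a small group of proteins that control RNA, silence transposons through PIWI-interacting RNAs (piRNAs), and pair and recombine chromosomes in meiosis. In most somatic cells these genes are kept silent, many of them through DNA methylation of CpG-rich promoters and through a Polycomb complex that holds MGA, MAX, E2F6, L3MBTL2 and PCGF6. Naive pluripotent cells, with little DNA methylation, are known to transcribe some of them without entering meiosis.

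Most of the germline genes were read above background in these cells, and their levels differed more between the 2 controls than between DIO and control. A gene was called clearly expressed where its probe set exceeded, on each of the 4 arrays, the 95th percentile of 43 probe sets for olfactory receptor genes, which such cells are not known to use. That level was 4.73 and 4.76 in DIO 1 and DIO 2, and 4.48 and 4.61 in control 1 and control 2. By this call 25 of 35 members were clearly expressed, close to the 71.6% of all genes called, so the share does not set the members apart. Only 6 members (Dazl, Rnf17, Tex19.1, Syce2, Rec8 and Tex15) exceeded the median gene level of their array on all 4 arrays, as 46.3% of all genes did. The nearest calls were Mael and Tex101, at least 0.14 and 0.16 above background, and Piwil1 and Slc25a31, whose dimmest array against background fell short of it by 0.05 and 0.15. Brightness also depends on the probes, so levels of different genes are only roughly comparable.

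**Figure D1:**
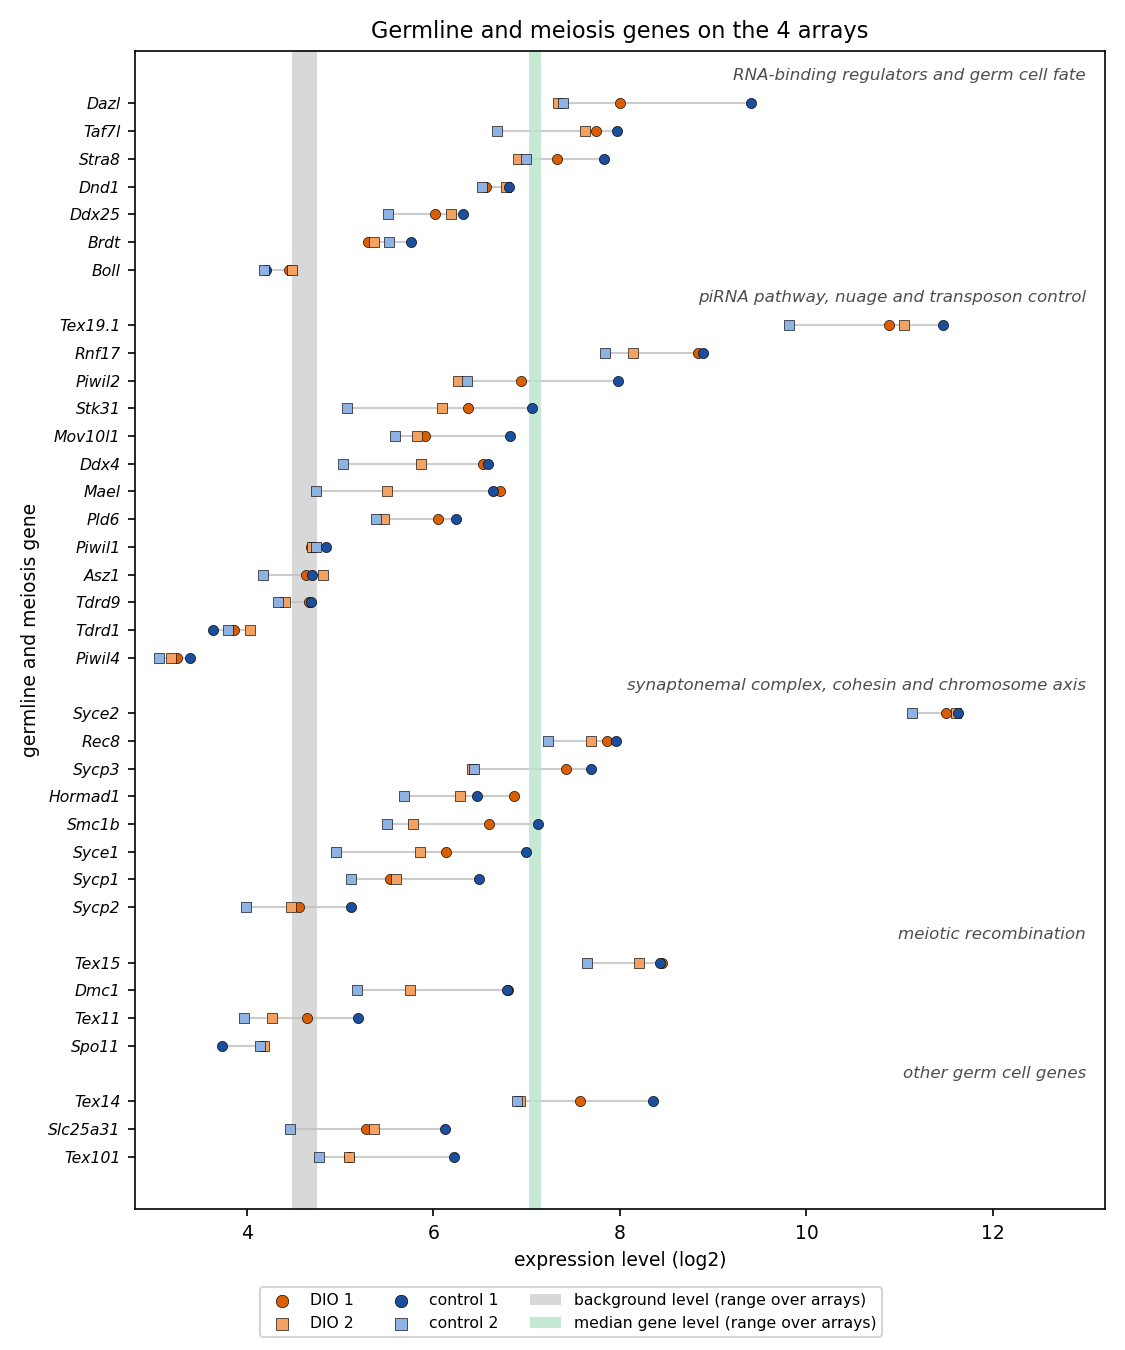
Log2 level of the 35 measured germline and meiosis genes on each array, grouped by role; DIO in orange, control in blue, circles for mouse 1 and squares for mouse 2, with bands for the range over arrays of the background level and of the median gene level. For 27 of the 35 genes control 1 was the highest array, and for 27 control 2 was the lowest.

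The promoters of the members are shown for their CpG content and for the letters bound by the silencing complex. Whether such features played a part in the choice of the members is not known. RefSeq (GRCm38.p6) gave a window from 250 bases before to 50 after the annotated start for 33 of the 39 members. There was none used here for Dnd1, Piwil2, Rnf17, Spo11, Tex11 and Tex15. For genes with several entries, among them Syce2, Hormad1, Piwil4 and Tdrd1, only the first listed was used. The windows printed here are, among members with an entry, those of the 3 brightest clearly expressed by mean level and the 2 dimmest. Rnf17 and Tex15, which were brighter than Dazl, had no entry. The windows of Sycp3 and Hormad1 follow, added after the motif search as the brightest members holding both motifs. Capitals mark matches to the E2F letters TCCCGC or GCGGGA and to the E-box letters CACGTG, and the windows of Dazl and Piwil4 hold neither.
Syce2 at chr8:84871861-84872160 on the plus strand: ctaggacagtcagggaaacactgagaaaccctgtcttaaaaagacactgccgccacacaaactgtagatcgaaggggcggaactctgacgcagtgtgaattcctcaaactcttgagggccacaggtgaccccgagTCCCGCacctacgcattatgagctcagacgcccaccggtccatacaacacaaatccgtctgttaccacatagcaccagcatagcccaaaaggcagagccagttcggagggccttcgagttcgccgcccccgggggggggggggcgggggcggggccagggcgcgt
Tex19.1 at chr11:121145893-121146192 on the plus strand: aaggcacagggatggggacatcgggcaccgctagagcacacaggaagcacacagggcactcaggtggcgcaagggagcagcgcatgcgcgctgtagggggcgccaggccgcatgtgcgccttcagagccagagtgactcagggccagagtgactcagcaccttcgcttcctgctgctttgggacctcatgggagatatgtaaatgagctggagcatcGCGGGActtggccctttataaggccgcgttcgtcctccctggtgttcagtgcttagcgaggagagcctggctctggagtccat
Dazl at chr17:50293571-50293870 on the minus strand: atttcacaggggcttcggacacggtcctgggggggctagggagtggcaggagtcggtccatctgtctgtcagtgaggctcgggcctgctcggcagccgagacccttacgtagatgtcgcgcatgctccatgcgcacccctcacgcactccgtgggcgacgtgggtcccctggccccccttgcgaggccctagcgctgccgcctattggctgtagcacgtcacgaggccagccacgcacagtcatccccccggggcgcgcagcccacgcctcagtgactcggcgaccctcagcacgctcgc
Piwil4 at chr9:14740623-14740922 on the minus strand: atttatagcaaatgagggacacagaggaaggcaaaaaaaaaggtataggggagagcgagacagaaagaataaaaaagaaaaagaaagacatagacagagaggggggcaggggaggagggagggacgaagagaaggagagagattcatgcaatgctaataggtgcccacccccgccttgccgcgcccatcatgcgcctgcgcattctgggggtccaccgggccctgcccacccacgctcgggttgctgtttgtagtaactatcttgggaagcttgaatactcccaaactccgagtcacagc
Tdrd1 at chr19:56825959-56826258 on the plus strand: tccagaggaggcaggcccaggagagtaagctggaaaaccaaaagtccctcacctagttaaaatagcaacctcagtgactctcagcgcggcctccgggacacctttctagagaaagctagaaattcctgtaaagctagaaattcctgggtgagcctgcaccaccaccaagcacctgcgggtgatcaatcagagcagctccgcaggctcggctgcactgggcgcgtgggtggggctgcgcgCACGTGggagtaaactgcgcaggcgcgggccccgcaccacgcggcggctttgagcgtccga
Sycp3 at chr10:88459337-88459636 on the plus strand: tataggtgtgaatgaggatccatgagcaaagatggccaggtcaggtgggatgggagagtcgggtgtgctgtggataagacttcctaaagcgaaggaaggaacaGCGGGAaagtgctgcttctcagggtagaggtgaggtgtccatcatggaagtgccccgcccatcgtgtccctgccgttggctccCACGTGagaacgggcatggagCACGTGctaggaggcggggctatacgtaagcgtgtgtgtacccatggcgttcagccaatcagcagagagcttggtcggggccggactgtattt
Hormad1 at chr3:95559427-95559726 on the plus strand: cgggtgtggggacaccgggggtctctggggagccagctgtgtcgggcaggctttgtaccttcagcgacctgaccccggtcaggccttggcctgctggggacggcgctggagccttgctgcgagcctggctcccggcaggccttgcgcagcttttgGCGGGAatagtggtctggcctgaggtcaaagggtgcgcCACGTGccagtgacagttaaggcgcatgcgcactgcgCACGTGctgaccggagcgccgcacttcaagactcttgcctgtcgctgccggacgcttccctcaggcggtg

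The E-box letters CACGTG, which read the same on both strands, occurred in 16 of 33 member promoters (48.5%), against 8.94% of the promoters of 14423 other genes with a probe set. They are the letters that dimers of MAX and MGA are known to bind. Of the 21 matches, 14 began within the 100 bases before the annotated start, and positions in promoters of other genes were not compared. CpG-rich promoters hold these letters more often, and among promoters with 15 or more CpG dinucleotides the share was 56.0% of 25 members and 11.5% of 8064 other genes. The letters were found in 10 of 21 clearly expressed members with a promoter and in 5 of 8 measured members that were not. The E2F letters, searched on both strands and able to share at most 1 base with an E-box, occurred in 13 member promoters (39.4%) and in 29.8% of the others. Among promoters with 15 or more CpG dinucleotides the gap was smaller, at 52.0% of members and 45.3% of other genes. The E2F letters were found in 12 of the 21 clearly expressed members and in 1 of the other 8, and with 15 or more CpG in 12 of 19 and in 1 of 4. At least 15 CpG dinucleotides were present in 19 of the 21, in 4 of the 8 and in 55.9% of other genes. These matches describe the letters alone, and binding was not measured.

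**Figure D2:**
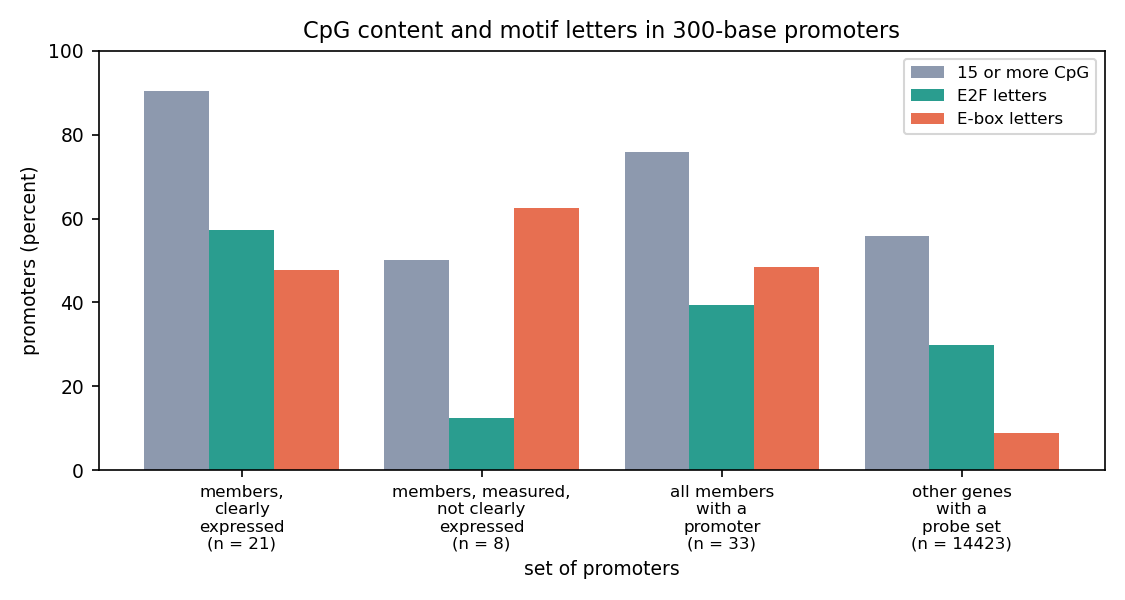
Percent of 300-base promoters with 15 or more CpG dinucleotides, with the E2F letters and with the E-box letters, for clearly expressed members, measured members not clearly expressed, all members with a promoter, and other genes with a probe set. The E-box bars stand at 47.6%, 62.5% and 48.5% for the members and at 8.94% for other genes.

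Among regulators of RNA and of germ cell fate, 6 of 7 measured genes were clearly expressed. Dazl, an RNA-binding protein that promotes translation in germ cells, read 8.01 and 7.34 in DIO 1 and DIO 2, against 9.41 and 7.39 in control 1 and control 2. Control 1 stood alone on the high side, while the other control lay between the DIO arrays, and the difference, DIO mean minus control mean, was −0.73 ± 0.75 (SE). Its other probe set gave 7.99 and 7.21 in DIO and 9.31 and 7.15 in the controls. Taf7l, a germ cell form of a general transcription factor subunit, was at 7.75 and 7.63 in DIO 1 and DIO 2, against 7.97 and 6.68 in control 1 and control 2, a difference of 0.36 ± 0.47. Stra8, which retinoic acid induces at the entry into meiosis, was at 7.32 and 6.90 in DIO 1 and DIO 2, against 7.83 and 7.00 in control 1 and control 2, a difference of −0.30 ± 0.34. In both genes at least 1 DIO array lay inside the range of the controls. Dnd1, an RNA-binding protein that protects primordial germ cells, read 6.57 and 6.78 in the DIO arrays and 6.81 and 6.52 in the controls (0.00 ± 0.17), the groups overlapping. Ddx25, an RNA helicase of the testis, read 6.02 and 6.19 in the DIO arrays and 6.31 and 5.51 in the controls (0.19 ± 0.31). Brdt, a bromodomain protein that reads acetylated histones in spermatogenic cells, had both DIO arrays below both controls in its brightest probe set. That probe set read 5.30 and 5.36 in the DIO arrays and 5.76 and 5.53 in the controls. This difference of −0.31 ± 0.15 had the smallest p of the clearly expressed members and did not pass (limma, adjusted p = 0.735). Another Brdt probe set had both DIO arrays above both controls, at 4.76 and 4.73 in DIO and 4.63 and 4.56 in the controls. The other Brdt probe sets were not clearly expressed, nor was the mean of all of them. Boll, a relative of Dazl, stayed under the background level on every array, at 4.45 and 4.48 in the DIO arrays and 4.20 and 4.19 in the controls.

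Of 13 measured genes of the piRNA pathway and of transposon control, 8 were clearly expressed. Tex19.1, which restrains retrotransposons in germ cells and is also known from embryonic stem cells and placenta, was far above background at 10.89 and 11.05 in DIO 1 and DIO 2, against 11.47 and 9.82 in control 1 and control 2. The DIO arrays lay close together between the controls, with a difference of 0.33 ± 0.59. Rnf17, a Tudor-domain protein of germ cell granules, read 8.84 and 8.14 in DIO 1 and DIO 2, against 8.89 and 7.84 in control 1 and control 2, a difference of 0.13 ± 0.45. Piwil2, a PIWI protein that carries piRNAs, was highest in control 1, at 6.94 and 6.26 in the DIO arrays and 7.98 and 6.36 in the controls (−0.57 ± 0.62). The other PIWI genes were dimmer. Piwil1 was at 4.69 and 4.70 in the DIO arrays and 4.85 and 4.75 in the controls, and Piwil4 at 3.25 and 3.19 in the DIO arrays and 3.39 and 3.06 in the controls, so neither reached background on all 4 arrays. Ddx4, the germ cell helicase also called Vasa, was at 6.53 and 5.86 in DIO 1 and DIO 2, against 6.59 and 5.03 in control 1 and control 2 (0.39 ± 0.60). Mael, needed to silence transposons in the male germline, was at 6.71 and 5.51 in DIO 1 and DIO 2, against 6.64 and 4.74 in control 1 and control 2 (0.42 ± 0.79). Both genes were lowest in control 2 and similar in DIO 1 and control 1. Stk31, a Tudor-domain kinase-like protein, was at 6.37 and 6.10 in the DIO arrays and 7.06 and 5.07 in the controls (0.17 ± 0.70), and Mov10l1, the helicase that feeds precursors into piRNA production, at 5.91 and 5.82 in the DIO arrays and 6.82 and 5.59 in the controls (−0.34 ± 0.45). Pld6, an enzyme of the mitochondrial surface needed for piRNA production, read 6.05 and 5.47 in the DIO arrays and 6.24 and 5.38 in the controls (−0.05 ± 0.38). The scaffold Asz1 and the Tudor-domain genes Tdrd1 and Tdrd9 were not clearly expressed. Asz1 was at 4.63 and 4.82 in the DIO arrays and 4.70 and 4.17 in the controls, Tdrd1 at 3.86 and 4.03 in the DIO arrays and 3.64 and 3.79 in the controls and Tdrd9 at 4.66 and 4.41 in the DIO arrays and 4.69 and 4.33 in the controls.

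All but 1 of the 8 genes of the synaptonemal complex, which zips paired chromosomes together, and of meiotic cohesin and chromosome axes were clearly expressed. Syce2, of the central element, had the highest mean of all members, at 11.50 and 11.61 in DIO 1 and DIO 2, against 11.63 and 11.13 in control 1 and control 2 (0.17 ± 0.21). Its gene overlaps Gcdh in the RefSeq annotation, and a share of Gcdh transcripts in the signal was not tested. Rec8, the meiotic cohesin subunit, read 7.86 and 7.69 in DIO 1 and DIO 2, against 7.96 and 7.23 in control 1 and control 2 (0.18 ± 0.29). Sycp3, of the lateral element, was at 7.42 and 6.42 in DIO 1 and DIO 2, against 7.69 and 6.44 in control 1 and control 2 (−0.15 ± 0.57). Its promoter, printed above, holds both motifs. The 2 arrays of mouse 2 were the low ones for Sycp3 in either group. Hormad1, which marks unsynapsed chromosome axes, was at 6.87 and 6.28 in DIO 1 and DIO 2, against 6.46 and 5.68 in control 1 and control 2. Its difference was 0.50 ± 0.36, with DIO 2 between the controls, and ran from 0.11 without control 2 to 0.89 without control 1. Smc1b, a further meiotic cohesin subunit, was at 6.59 and 5.79 in the DIO arrays and 7.12 and 5.50 in the controls (−0.12 ± 0.64). Syce1, of the central element, was at 6.14 and 5.86 in the DIO arrays and 7.00 and 4.95 in the controls. Among the brightest probe sets of the members, this was the widest gap between controls. Sycp1, the transverse filament, was at 5.54 and 5.60 in the DIO arrays and 6.49 and 5.12 in the controls (−0.23 ± 0.49), and Syce1 differed by 0.02 ± 0.73. Sycp2, a lateral element protein, exceeded background in control 1 alone, at 4.55 and 4.47 in the DIO arrays and 5.12 and 3.99 in the controls.

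Of the recombination genes, Dmc1, the meiotic strand-exchange enzyme, was at 6.80 and 5.75 in DIO 1 and DIO 2, against 6.79 and 5.19 in control 1 and control 2 (0.28 ± 0.68). Tex15, needed in mice for meiotic repair and transposon silencing, was at 8.45 and 8.21 in DIO 1 and DIO 2, against 8.43 and 7.65 in control 1 and control 2 (0.29 ± 0.31). Both were lowest in control 2. Spo11, the enzyme that makes the DNA breaks from which meiotic recombination starts, stayed under background on every array, at 4.17 and 4.18 in the DIO arrays and 3.73 and 4.14 in the controls. Tex11, an X-linked gene of crossover formation, passed background in control 1 alone, at 4.64 and 4.27 in the DIO arrays and 5.19 and 3.97 in the controls. Of the remaining genes, Tex14, a protein of the bridges between germ cells, was at 7.58 and 6.93 in DIO 1 and DIO 2, against 8.36 and 6.90 in control 1 and control 2 (−0.37 ± 0.57). Tex101, a surface protein of germ cells, was at 5.10 and 5.10 in the DIO arrays and 6.22 and 4.77 in the controls (−0.40 ± 0.52), and Slc25a31, a testis ADP/ATP carrier, at 5.28 and 5.37 in the DIO arrays and 6.13 and 4.46 in the controls. In Tex14, Tex101 and Slc25a31, too, control 1 was the highest array and control 2 the lowest.

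Between DIO and control no member passed the test. With limma fitted to all 18193 genes, 0 of 35 members had an adjusted p below 0.05 (0% of all genes), and 0 members had an unadjusted p below 0.05, where 3.26% of all genes were higher and 3.32% lower. Adjusted p ran from 0.730 to 0.999 over the members. The median difference of the members was 0.03, against 0.02 over all genes, with 20 members higher and 15 lower in DIO (46.7% of all genes lower). The groups did not overlap for 5 members, with DIO above in Boll, Tdrd1 and Spo11 (21.4% of all genes) and below in Brdt and Piwil1 (17.0%). Only Brdt among them was clearly expressed, and 30 members overlapped. These counts use the brightest probe set of each gene. For Brdt and for Boll, another probe set separated the groups in the reverse direction. The 95% confidence interval included 0 for each of the 35 members, and its half-width was 0.40 to 2.16 in the clearly expressed ones. The median half-width was 1.22 over the members and 0.46 over all genes. The members' intervals were thus wide, and an equal level in the 2 groups is not shown. For a single gene, exact permutation of 2 and 2 arrays allows no 2-sided p smaller than 0.333. Testing each of the 34945 probe sets gave 0 calls as well, with 2811 at an unadjusted p below 0.05.

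The members differed more between the controls than between the groups. The median size of the gap was 0.23 between DIO and control, 1.13 between the controls and 0.21 between the DIO arrays, against 0.16, 0.24 and 0.14 over all genes. The gap between DIO and control is taken between means of 2 arrays, which vary less than the single arrays of the other gaps. Control 2 was below control 1 in 33 of 35 members (62.1% of all genes), and by at least 1 log2 unit in 19 of them (1.81% of all genes). The median of control 2 minus control 1 was −1.13 over the members and −0.09 over all genes. The exceptions were Tdrd1 and Spo11, both under background on every array. All 25 clearly expressed members were lower in control 2, 16 of them by at least 1 log2 unit (2.29% of clearly expressed genes), with a median of −1.29. Control 1 was the highest array for 27 members (34.0% of all genes) and control 2 the lowest for 27 (40.9%). Both DIO arrays lay between the controls for 21 members, against 25.0% of all genes. Of the clearly expressed members, 21 were highest in control 1 (38.4% of clearly expressed genes), 20 lowest in control 2 (43.0%) and 16 had both DIO arrays between the controls (27.6%). Between the DIO mice the members were closer: DIO 2 was below DIO 1 in 22 of 35 (51.6% of all genes), with a median of −0.16. Over the 25 clearly expressed members the median of DIO 2 minus DIO 1 was −0.27, against −0.02 over clearly expressed genes. For 2 members, Mael and Dmc1, that gap reached 1 log2 unit in the brightest probe set (0.770% of all genes). These counts compare single arrays and carry no test. The members were chosen with earlier results of these data known, so the shares of all genes are not an independent comparison for them.

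The direction of DIO against control therefore turned on which control was used. Against control 1, the DIO mean was lower in 30 of 35 members (54.9% of all genes) and both DIO arrays were lower in 27 (42.3%), with a median of −0.48. Against control 2, the DIO mean was higher in 33 members (61.8%) and both DIO arrays in 29 (50.1%), with a median of 0.48. Of the 25 clearly expressed members, 24 were lower than control 1, all but Hormad1, and 24 were higher than control 2, all but Brdt. With control 1 left out, 0 members passed although 483 genes did (2.65% of all genes), and the smallest adjusted p of a member was 0.0545. There the unadjusted p was below 0.05 for 14 members (20.3% of all genes). With control 2 left out, 0 members and 0 genes passed, and 15 members had an unadjusted p below 0.05 (12.4%). A group of 1 array has no spread of its own, and the fit assumes that it varies like the other group.

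**Figure D3:**
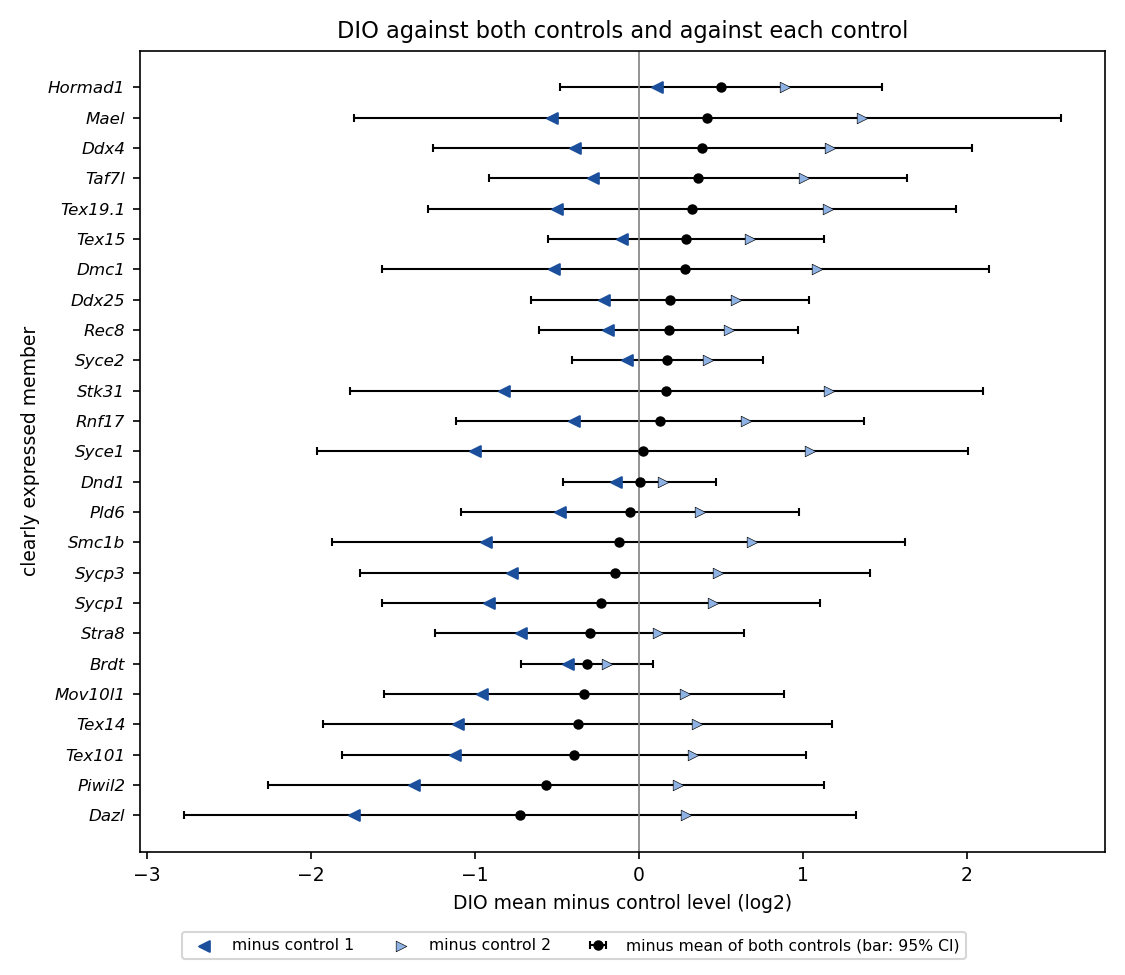
DIO mean minus control level (log2) for the 25 clearly expressed members: black points, minus the mean of both controls with the 95% confidence interval from limma; triangles, minus control 1 (dark) and minus control 2 (light). Every black interval crosses 0, the dark triangles lie left of 0 for 24 members and the light ones right of 0 for 24.

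Markers of other cells moved with the members in part. The 13 pluripotent cell markers averaged 10.59 and 9.36 in DIO 1 and DIO 2, against 10.14 and 9.17 in control 1 and control 2. All 13 were lower in mouse 2 than in mouse 1 of either group, with a median step of −1.32 in DIO and −1.01 in the controls. The members shared the step between the controls, but their median step between the DIO mice was −0.16, or −0.27 in the 25 clearly expressed. The pluripotent markers were highest in DIO 1 for 12 of 13, where 4 of 35 members and 20.8% of all genes were. The members averaged 6.38 and 6.10 in DIO 1 and DIO 2, and 6.73 and 5.71 in control 1 and control 2. Epidermal markers ran the other way between the controls, with all 13 higher in control 2, by a median of 5.41. The 6 trophoblast markers averaged 7.82 and 8.09 in DIO 1 and DIO 2, against 7.62 and 7.20 in control 1 and control 2, and the average of the 7 simple epithelial markers was 12.26 to 12.38 over the arrays. The parts of pluripotent, epidermal and trophoblast cells in the members' levels were not tested.

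**Figure D4:**
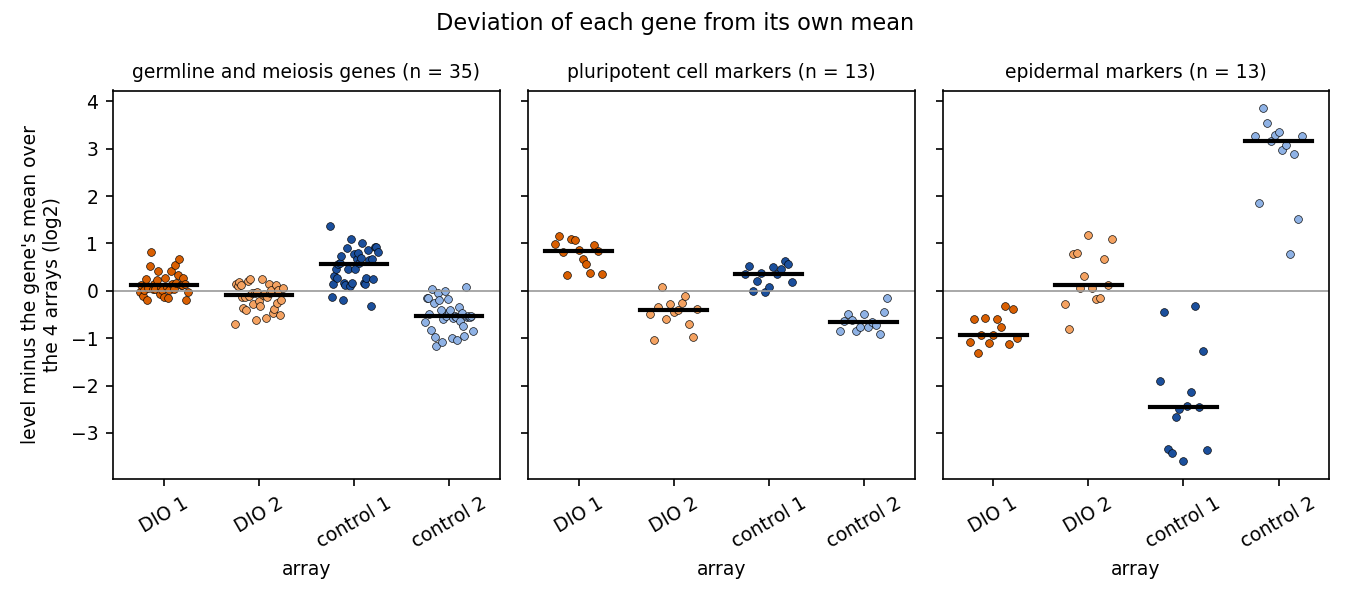
Level of each gene minus its own mean over the 4 arrays (log2), for the 35 members, 13 pluripotent cell markers and 13 epidermal markers; bars are medians. The members' medians are 0.12 and −0.08 in DIO 1 and DIO 2 and 0.57 and −0.53 in control 1 and control 2, while the pluripotent markers have theirs highest in DIO 1, at 0.85.

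Of the further germline and silencing genes, 107 of 116 listed were measured and 0 passed in either direction by limma. At an unadjusted p below 0.05, 4 were higher (3.26% of all genes) and 0 lower (3.32%), a share of higher calls near that of all genes. Those 4, named after their values were seen, were Hells, Tfap2c, Kif17 and Spem1. For further piRNA genes the median difference was −0.05 over 10, with 5 higher and 5 lower. Gpat2, which piRNA production needs in mice, was at 8.50 and 8.20 in the DIO arrays and 9.39 and 7.66 in the controls (−0.18 ± 0.62), with both DIO arrays between the controls. Tdrd7, a Tudor-domain protein, was at 9.94 and 9.94 in the DIO arrays and 10.19 and 10.01 in the controls (−0.16 ± 0.14). Further meiosis genes had a median of 0.19 over 22, with 16 higher (53.3% of all genes) and 6 lower in DIO. Trip13, a remodeller of chromosome axes that also acts in mitosis, was at 10.48 and 10.40 in the DIO arrays and 10.21 and 9.74 in the controls (0.46 ± 0.20), and Rec114, a partner in break formation, at 9.75 and 8.76 in the DIO arrays and 9.51 and 8.15 in the controls (0.43 ± 0.59). Control 2 was below control 1 in 19 of these 22 (62.1% of all genes).

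Genes of germ cell specification, which share Nanog, Dppa4, Dppa5a and Utf1 with the pluripotent markers, had 14 of 16 clearly expressed (71.6% of all genes). Their median difference was 0.26. Dppa5a, an RNA-binding protein of pluripotent and germ cells, was at 13.45 and 12.12 in the DIO arrays and 12.66 and 12.07 in the controls (0.42 ± 0.51), and Ifitm3, a membrane protein of early germ cells, at 10.87 and 10.58 in the DIO arrays and 10.82 and 11.72 in the controls (−0.54 ± 0.35). Spermatid genes were clearly expressed in 6 of 16 (71.6% of all genes), with a median of 0.09. Odf2, which centrosomes of other cells also use, was at 10.91 and 10.43 in the DIO arrays and 10.71 and 10.37 in the controls (0.13 ± 0.24), and Ldhc, the testis lactate dehydrogenase, at 7.77 and 7.45 in the DIO arrays and 8.29 and 6.85 in the controls (0.04 ± 0.53). Prm2 and Tnp1, which pack sperm DNA and were named after their values were seen, were not clearly expressed, at 3.94 and 4.08 for Prm2 in DIO and 3.93 and 3.94 in the controls. Tnp1 read 4.37 and 4.34 in DIO and 4.54 and 4.30 in the controls. Oocyte genes were clearly expressed in 5 of 13 (71.6% of all genes), with a median of 0.02. Ooep, of the maternal complex of the egg, was at 9.27 and 7.03 in the DIO arrays and 8.09 and 7.35 in the controls (0.43 ± 0.82), and Sohlh2, a transcription factor of early germ cells, at 7.87 and 7.00 in the DIO arrays and 8.64 and 6.72 in the controls (−0.25 ± 0.74).

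All 26 measured silencing factors were clearly expressed (71.6% of all genes), and 24 exceeded the median gene level on every array (46.3%). Their median difference was 0.14, with 21 higher and 5 lower in DIO, where 50.0% of clearly expressed genes were higher (53.3% of all genes). Control 2 was below control 1 in 21 of the 26 (65.2% of clearly expressed genes), and the part of that step in the count was not tested. Trim28, a corepressor of zinc finger proteins, was at 12.25 and 11.96 in the DIO arrays and 12.10 and 11.87 in the controls (0.12 ± 0.17), and Kdm1a, a histone demethylase, at 11.62 and 11.68 in the DIO arrays and 11.70 and 11.49 in the controls (0.05 ± 0.14). Of the 4 measured DNA demethylation genes, Tet1, which oxidizes methylated cytosine, was at 10.52 and 9.08 in the DIO arrays and 10.25 and 9.08 in the controls (0.14 ± 0.65). Tet2, of the same family, was at 8.58 and 7.95 in the DIO arrays and 8.41 and 8.27 in the controls (−0.07 ± 0.25), and the median of the 4 was −0.14. Of 8 measured markers of testis somatic cells, 6 were clearly expressed, a share near the 71.6% of all genes. Their averages ran from 5.86 to 6.06 over the arrays.

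Probe sets of a gene did not always give the same sign. Of 35 members, 27 had 1 probe set and 8 had several, 21 in all, and in 4 of these 8 (Asz1, Boll, Brdt and Rnf17) the sign of the difference varied. For Rnf17, the probe set with the highest mean gave the 0.13 above, and the others gave 0.03, −0.22 and −0.43. All 4 had control 1 highest. For Stk31 the second probe set differed by 0.97 ± 0.58, against 0.17 for the first and 0.57 for their mean. The first, used for the levels above, is of a probe set type that can also read related sequences. The second was not clearly expressed, since control 2, at 4.59, lay just under its background level. Dmc1 differed by 0.35 in its second probe set and 0.28 in its first. The second, also clearly expressed, read 5.89 and 5.75 in DIO 1 and DIO 2, against 5.71 and 5.23 in control 1 and control 2. There both DIO arrays lay above both controls, and the gaps within each group were smaller than in the first. In the RefSeq annotation Dnd1 overlaps Wdr55, Sycp3 overlaps Chpt1, Smc1b overlaps Fam118a and Tdrd9 overlaps Rd3l, and Tex19.1 has a close relative, Tex19.2. A share of their transcripts in these signals was not tested.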

How the data were processed

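RNA of iPSC-derived endothelial cells from 2 DIO and 2 control mice was hybridized as biotin-labelled RNA to Affymetrix mouse arrays, per the labels' protocols. The authors deposited 1 table of log2 expression values for 45101 probe sets. Background correction, normalization and summary method were not stated in the sources used here, and the scale was judged by the range of 2.59 to 14.56 and array medians of 5.61 to 5.65. No detection calls were used, and the number of arrays limits the precision.

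Groups and replicate numbers came from the sample titles. The 64 manufacturer control probe sets, 932 with several gene symbols and 9160 with none listed were left out of the tests. By gene number 34741 of 34945 single-gene probe sets matched RefSeq (GRCm38.p6), and 0 changed symbol. A gene took its brightest probe set by mean over the 4 arrays. A 2-sided limma test (version 3.58.1, R 4.3.3, functions lmFit and eBayes) set DIO against control over all genes at once, adjusted by Benjamini-Hochberg, at a threshold of 0.05. The fit was tested on simulated data. Alternatives were quantile normalization, centring on array medians, a fit without the dimmest 40% of genes, the mean of a gene's probe sets, every probe set by itself, eBayes with a trend and robust option, the mouse number as a block, other background levels and leaving out each array. Differences were named for the clearly expressed members and, for each further list, the 2 genes with the highest mean. The members and lists were chosen with earlier results of these data known.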

Additional observations from a re-analysis of the deposited data

How the results depend on the processing

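With quantile normalization, centring on array medians, a trended and robust eBayes, averaged probe sets or the dimmest 40% of genes left out, 0 genes passed. Leaving out 1 array in turn gave 0 to 483 genes, the upper value without control 1, a median difference of the members of −0.48 (without control 2) to 0.48 (without control 1) and −0.09 without DIO 1. It gave 3 to 29 members with both DIO arrays above the controls and 2 to 27 with both below. The last 2 counts use 1 array of a group and so are easier to reach. With the dimmest genes left out, 0 and 0 of the 20 members kept had both DIO arrays above or below, and with averaged probe sets 1 lay below. The count of clearly expressed members was 13 against the median of all probe sets and 6 against the median gene level, since both levels are higher. It was 23 to 28 under the other background levels and calls, and 25 or 26 with an array left out, which was chosen after seeing the data. Rnf17 turned to −0.12 with averaged probe sets and Tet2 to 0.021 with quantile normalization. Averaged probe sets moved differences, with no change of sign, by over 1.5 times for Stk31 (0.57), Tet2 (−0.36), Ldhc (0.29), Trip13 (0.27), Kdm1a (0.089), Trim28 (0.068), Odf2 (0.030) and Tdrd7 (−0.035). Quantile normalization did so for Dnd1 (0.13), Stra8 (−0.16), Rnf17 (0.23), Pld6 (−0.0078), Sycp3 (−0.025), Syce1 (0.081), Rec8 (0.31), Smc1b (−0.043), Tex14 (−0.24), Tdrd7 (−0.11), Gpat2 (−0.079), Ldhc (0.17) and Sohlh2 (−0.13). Centring did so for Dnd1 (0.034), Pld6 (−0.024), Syce1 (0.052), Ldhc (0.068), Kdm1a (0.080) and Tet2 (−0.040). With 1 array left out, differences ran from −1.74 to 0.29 for Dazl, −0.14 to 0.15 for Dnd1, −0.21 to 0.59 for Ddx25, −0.28 to 1.01 for Taf7l, −0.72 to 0.12 for Stra8, −0.39 to 1.17 for Ddx4 and −0.53 to 1.36 for Mael, from −0.82 to 1.16 for Stk31, −0.40 to 0.66 for Rnf17, −1.37 to 0.24 for Piwil2, −0.95 to 0.28 for Mov10l1, −0.48 to 0.38 for Pld6, −0.50 to 1.15 for Tex19.1 and −0.91 to 0.45 for Sycp1, and from −0.77 to 0.48 for Sycp3, −0.999 to 1.04 for Syce1, −0.074 to 0.42 for Syce2, −0.19 to 0.55 for Rec8, −0.93 to 0.69 for Smc1b, −0.52 to 1.09 for Dmc1, −0.10 to 0.68 for Tex15, −1.10 to 0.36 for Tex14 and −1.12 to 0.33 for Tex101. Of the further genes they ran from −1.04 to 0.69 for Gpat2, −0.25 to 1.10 for Rec114, −0.24 to 1.08 for Dppa5a, −0.11 to 0.37 for Odf2, −0.69 to 0.76 for Ldhc, −0.69 to 1.54 for Ooep, −1.21 to 0.72 for Sohlh2, −0.023 to 0.26 for Trim28, −0.056 to 0.16 for Kdm1a, −0.58 to 0.86 for Tet1 and −0.38 to 0.25 for Tet2. Without a change of sign they ran from 0.11 to 0.89 for Hormad1, −0.43 to −0.20 for Brdt, −0.99 to −0.093 for Ifitm3, 0.23 to 0.70 for Trip13 and −0.26 to −0.071 for Tdrd7. With the mouse number as a replicate block, 0 genes passed and the smallest adjusted p of a member was 0.727. Hormad1 was the only member with an unadjusted p below 0.05 there. The steps from mouse 2 to mouse 1 correlated across genes between the groups (r = 0.33), but the labels give the numbers to different mice, so they do not pair the samples.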
